A study of Arabidopsis thaliana with 21 samples.

Results

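A set of 111 Arabidopsis thaliana probe sets gave a higher signal without ABA2 in each of 3 genetic backgrounds. They were chosen from 22746 probe sets by their group means of log2 signal. The means of aba2 minus Col-0, of aba2/ga20ox1 minus ga20ox1 and of aba2/GA20OX1-OE minus GA20OX1-OE each had to differ by 0.7 or more, a fold of 1.62. ABA2-OE minus Col-0 had to lie above -0.5, and the Col-0 mean at 6 or more, a signal of 64. Control probe sets, genes whose symbols begin with EXP, SWEET, UGT, CYP, XTH or PDF, and LHCB4.3 and GH3.3 were left out, which removed 7 probe sets by symbol. The annotation gives 1 gene for 57 of the 111, several for 1 and none for 53, and all 111 passed the filter on low signals. Only probe sets with 1 gene were given a symbol. The exclusion by symbol could therefore not be applied to the other members, and genes of the excluded families may remain among them. The values that chose the members are given below as a description, without a test.

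Abscisic acid (ABA) is the hormone with which plants close stomata and answer drought, cold and salt, and it also holds back germination. ABA2 encodes a dehydrogenase of ABA synthesis that turns xanthoxin into abscisic aldehyde, and aba2 mutants hold little ABA, wilt easily and stay small. Gibberellins (GA) promote germination, stem growth and leaf expansion, often in the opposite sense to ABA, and GA20OX1 encodes a GA 20-oxidase, which makes the precursors of the active GAs.

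The series asks how both hormones act together on leaf growth. Its 7 genotypes, all in the Col-0 ecotype, were Col-0 itself, the mutant of each gene (aba2 and ga20ox1), an overexpression line of each gene (ABA2-OE and GA20OX1-OE), the double mutant aba2/ga20ox1, and aba2/GA20OX1-OE, which joins the aba2 mutation with overexpression of GA20OX1. Each was measured on 3 single-channel Affymetrix arrays from the aerial parts (rosettes) of untreated plants grown in soil under long days to 21 days of age. The sources used here do not give the mutant alleles, the promoters behind the overexpression, whether a line is a single transformant, or whether arrays came from separate plants. The p-values below therefore measure only the spread between these arrays, which may be partly technical.

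The median signal of an array was 131 to 187, and log2 signals of arrays within a genotype correlated at 0.958 to 0.983. Neither ABA2 nor GA20OX1 is named by the annotation, so the genotypes were not checked by these transcripts. Of the 18 genes on the list of ABA-induced stress genes 5 were tested, and all 5 were lower in aba2 than in Col-0 by limma (2.51% of all tested probe sets, median log2 difference of the list -1.5 against 0.05). Called lower were 3 of the 5 in aba2/ga20ox1 against ga20ox1 (2.56% of all tested) and 3 of the 5 in aba2/GA20OX1-OE against GA20OX1-OE (1.8% of all tested). COR15A, which encodes a chloroplast protein induced by cold and ABA, differed by -3.66 (SE 0.33, limma adjusted p = 3.9e-07), -2.93 (SE 0.33, limma adjusted p = 8.7e-06) and -2.86 (SE 0.33, limma adjusted p = 1.3e-05) in these comparisons. The 6 tested nuclear photosynthesis genes, which mark green leaf tissue, had 0 calls in them, with medians of -0.36, -0.17 and -0.17. All their differences were below 0, and the lack of calls does not show that they were unchanged. Their summed signal was 151232 to 207688 in Col-0 and 125295 to 146601 in aba2. It was 128223 to 186605 in ga20ox1 and 121469 to 149776 in aba2/ga20ox1. In GA20OX1-OE it was 118142 to 137660, and in aba2/GA20OX1-OE 105786 to 129870.

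The median log2 signal of the 111 members was higher on every array that carried aba2 than on any array without it. It was 7.56 to 8.05 on the 12 arrays without the mutation and 9.07 to 9.47 on the 9 arrays with it. The ranges do not overlap, which the rule favours, since it used these arrays. In aba2 against Col-0 the differences ran from 0.70 to 3.60 with a median of 1.12, a fold of 2.17. In aba2/ga20ox1 against ga20ox1 they ran from 0.71 to 3.68 with a median of 1.08, and in aba2/GA20OX1-OE against GA20OX1-OE from 0.70 to 3.15 with a median of 1.12. The medians over all 15923 tested probe sets were 0.05, -0.04 and 0.00. No background held the largest difference for most members. It was that of aba2 alone in 37, that in the ga20ox1 background in 34 and that under GA20OX1-OE in 40. The 3 arrays of each genotype lay wholly above those of its partner for 107 members in aba2 (11.6% of all tested probe sets), for 104 in aba2/ga20ox1 (11% of all tested) and for 99 in aba2/GA20OX1-OE (11.2% of all tested). For 56 members, 31 of them with 1 gene, all 9 arrays with aba2 lay above all 12 without it, as did 0.867% of all tested probe sets. Nothing is read from these shares, since the rule used the same contrasts. In whole rosettes, a change in the share of a cell type and a change in RNA per cell cannot be told apart.

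**Figure D1:**
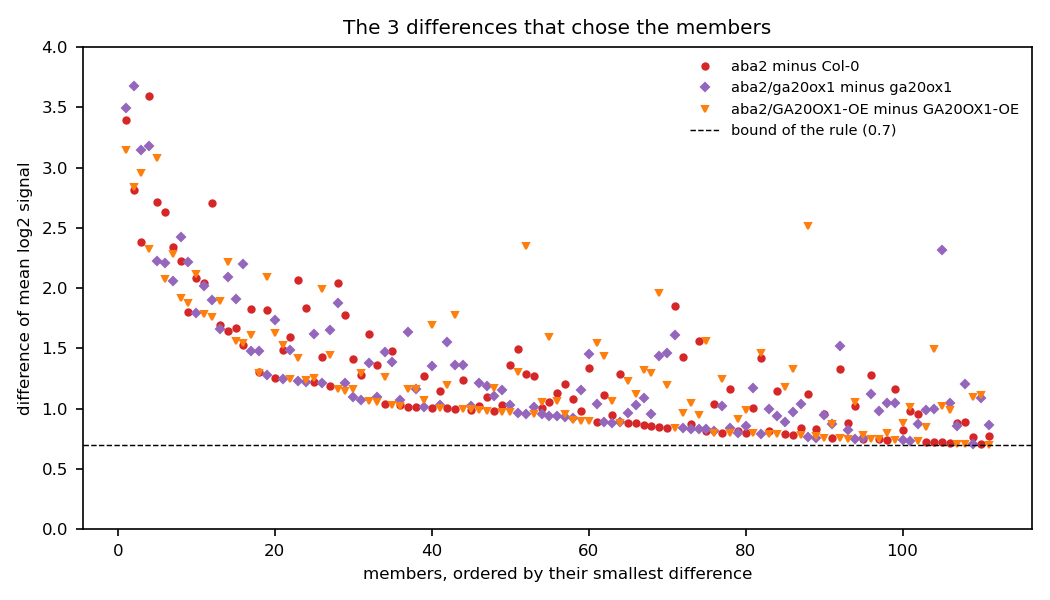
Differences of mean log2 signal for the 111 members, ordered along the horizontal axis by the smallest of their 3 differences, for aba2 minus Col-0 (circles), aba2/ga20ox1 minus ga20ox1 (diamonds) and aba2/GA20OX1-OE minus GA20OX1-OE (triangles), each between means of 3 arrays. All points lie above the dashed bound of 0.7 by construction, and in 42 members all 3 are 1 or more.

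The module had few large members. The smallest of the 3 differences was 2 or more in 7 members, 1 or more in 42 and under 1 in 69. The Col-0 means lay between 6.04 and 12.48 with a median of 7.66, with 63 under 8 and 14 at 10 or more. Levels of different probe sets are not compared, since each binds its target with its own strength. Of the 111 members, 55 met the rule with any single array left out, and each of the others met it in at least 15 of the 21 such sets. The number of members was then 104 to 117.

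The gene that led was AT5G22430, whose product belongs to the pollen Ole e 1 allergen and extensin family. Its log2 signals were 10.23, 10.33 and 10.14 in aba2, 9.89, 9.38 and 10.46 in aba2/ga20ox1, and 10.83, 11.20 and 10.89 in aba2/GA20OX1-OE. They were 5.58, 7.66 and 7.27 in Col-0, 6.96, 5.06 and 7.22 in ga20ox1, 9.02, 6.63 and 7.82 in GA20OX1-OE, and 8.96, 8.63 and 8.84 in ABA2-OE. All arrays with aba2 lay above all arrays without it, while Col-0, ga20ox1 and GA20OX1-OE were each widely spread. The differences of 3.39, 3.49 and 3.15 correspond to folds of 10.5, 11.3 and 8.86.

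AT2G20870, which encodes a putative cell wall protein, followed the same order of genotypes. It stood at 11.38, 11.43 and 11.35 in aba2, 11.18, 10.63 and 11.39 in aba2/ga20ox1, and 12.09, 12.29 and 12.14 in aba2/GA20OX1-OE. The other arrays were at 7.19, 9.47 and 9.07 in Col-0, 7.85, 7.0 and 7.31 in ga20ox1, 10.59, 7.75 and 9.65 in GA20OX1-OE, and 10.36, 10.03 and 10.32 in ABA2-OE. Here too the arrays with aba2 were the highest, although GA20OX1-OE replicate 1 came within 0.1 of the lowest of them. The differences were 2.81, 3.68 and 2.84. In both genes Col-0 replicate 1 and GA20OX1-OE replicate 2 were the lowest arrays of their groups by more than 1 log2 unit.

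The third leading gene, AT3G23550, encodes a MATE efflux family protein, a type of membrane transporter that exports small molecules in exchange for ions. Its signals were 10.36, 10.98 and 11.07 in aba2, 10.64, 11.21 and 11.48 in aba2/ga20ox1, and 9.96, 9.45 and 10.26 in aba2/GA20OX1-OE. In Col-0 they were 7.25, 6.86 and 7.51, in ABA2-OE 7.43, 6.79 and 7.51, in ga20ox1 7.75, 8.02 and 8.03, and in GA20OX1-OE 7.37, 7.84 and 7.51. A gap of more than 1 log2 unit parted the arrays with aba2 from the rest, and aba2/GA20OX1-OE was the lowest of the mutant genotypes. The fold was 12.1 in aba2, 9.05 in the ga20ox1 background and 5.0 under GA20OX1-OE, among the widest ranges of any member with 1 gene (log2 differences of 3.60, 3.18 and 2.32).

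**Figure D2:**
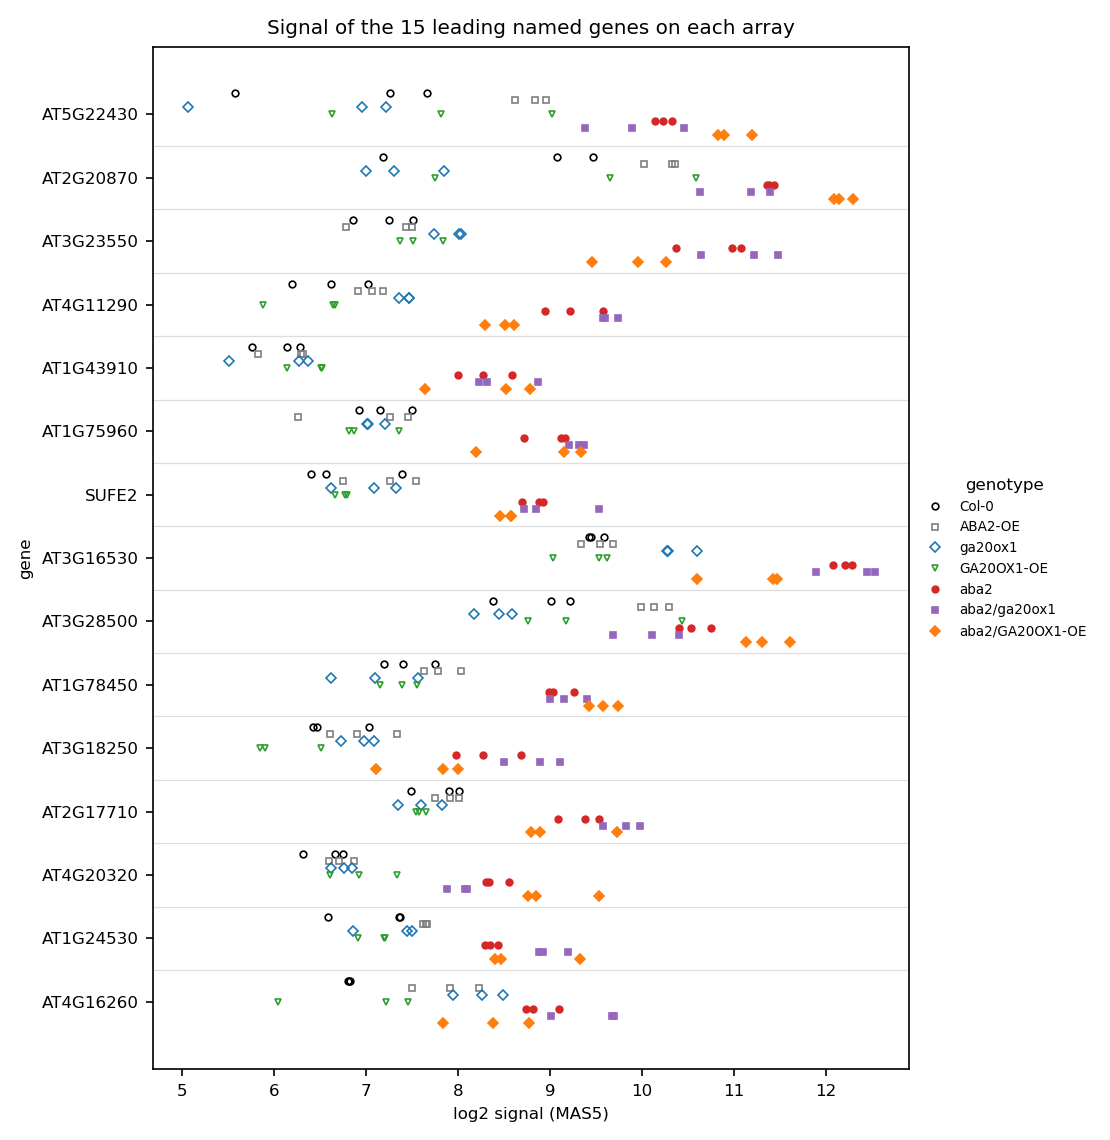
Log2 MAS5 signal (horizontal axis) on each of the 21 arrays for the 15 named genes with the largest smallest-of-3 difference, 1 point per array, with open symbols for genotypes without the aba2 mutation and filled symbols for those with it. The filled points lie to the right of all open points in 12 of the 15 genes, and not in AT3G28500, AT3G18250 and AT4G16260.

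Of the 57 genes, 35 were sorted by the known family of their product. The cell wall and surface group had 6 members, whose smallest differences were 0.72 to 3.15. Beside the leading pair these were the pectate lyase gene AT4G24780, whose product cleaves pectin, the pectin methylesterase inhibitor family gene AT5G62360, and AT5G33370 and AT2G04570, which encode GDSL-type esterases or lipases. AT5G62360 had 12.45, 12.34 and 12.64 in Col-0 against 13.29, 13.54 and 13.43 in aba2. It stood at 13.34, 13.28 and 13.18 in aba2/ga20ox1 and at 13.74, 13.33 and 13.26 in aba2/GA20OX1-OE. Its 9 arrays with aba2 all lay above the others, whose highest was 12.68 in ABA2-OE, and its differences of 0.94, 0.88 and 1.06 were small and alike. AT4G24780 differed by 0.82, 0.74 and 0.88 from Col-0, ga20ox1 and GA20OX1-OE in turn, and its Col-0 arrays stood at 11.76, 11.58 and 10.96. AT2G04570 differed by 0.72, 1.0 and 1.5, and AT5G33370 by 1.42, 0.79 and 1.46. A further 3 genes, AT4G24140, AT1G80280 and AT1G32190, encode alpha/beta-hydrolase family proteins, with smallest differences of 0.98 to 1.08. AT4G24140 had a Col-0 mean of 6.14 ± 0.36 (SD, n = 3) and differed by 1.27, 1.01 and 1.07.

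Transporter genes numbered 5, and 3 of them belonged to the MATE family. AT3G26590 differed by 0.89, 1.03 and 1.54, and AT3G21690 by 1.04, 0.82 and 0.80, both much less than AT3G23550. AT5G62730, of the nitrate and peptide transporter (NRT1/PTR) family, differed by 0.86, 1.09 and 1.32. CHX16, a member of the cation/H+ exchanger family, had signals of 6.79, 7.07 and 7.21 in Col-0 and of 7.91, 7.98 and 7.74 in aba2. Its differences were 0.85, 0.95 and 1.3, and the last of these rested on GA20OX1-OE arrays of 6.55, 6.42 and 6.27, the lowest of that gene.

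The defence-type group held 5 genes, whose smallest differences were 0.72 to 2.07. AT4G11290, of the class III peroxidase family, which acts on cell walls and reactive oxygen, had 9.57, 9.22 and 8.95 in aba2, 9.60, 9.57 and 9.74 in aba2/ga20ox1, and 8.60, 8.51 and 8.30 in aba2/GA20OX1-OE. Without the mutation it had 7.02, 6.19 and 6.62 in Col-0, 7.07, 6.91 and 7.18 in ABA2-OE, 7.47, 7.36 and 7.47 in ga20ox1, and 6.64, 5.88 and 6.66 in GA20OX1-OE. The groups with and without aba2 did not overlap, and within each ABA2 state the genotype with ga20ox1 was above the one with GA20OX1-OE. Its differences were 2.63, 2.21 and 2.07.

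AT3G16530, a legume lectin family gene, showed a like order. It had 12.08, 12.21 and 12.28 in aba2, 11.88, 12.53 and 12.45 in aba2/ga20ox1, and 11.46, 10.60 and 11.42 in aba2/GA20OX1-OE. Col-0 lay at 9.42, 9.45 and 9.59, ABA2-OE at 9.55, 9.34 and 9.69, ga20ox1 at 10.29, 10.28 and 10.60, and GA20OX1-OE at 9.04, 9.62 and 9.53. The lowest array with aba2, aba2/GA20OX1-OE replicate 2, was only just above the highest ga20ox1 array. The differences were 2.71, 1.90 and 1.76.

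AT4G16260, of the beta-1,3-glucanase family, to which several pathogenesis-related proteins belong, overlapped between the states. It was at 6.83, 6.82 and 6.80 in Col-0, 8.23, 7.92 and 7.50 in ABA2-OE, 7.95, 8.26 and 8.49 in ga20ox1, and 7.22, 7.46 and 6.05 in GA20OX1-OE. With aba2 it was at 9.10, 8.74 and 8.82, with aba2/ga20ox1 at 9.01, 9.70 and 9.67, and with aba2/GA20OX1-OE at 8.38, 7.84 and 8.77. The aba2/GA20OX1-OE arrays reached down among those of ga20ox1 and ABA2-OE, while each mutant genotype was above its own partner. The cystatin gene AT5G47550, for a protease inhibitor (0.72, 0.99 and 0.85), and the ribonuclease T2 gene AT1G14210 (1.32, 1.52 and 0.75) completed the group.

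The enzyme and metabolism group, a mixed one, held 8 genes with smallest differences of 0.84 to 1.92. AT1G43910, an AAA-type ATPase gene, had a Col-0 mean of 6.06 ± 0.27, against 8.29 ± 0.29 in aba2, 8.47 ± 0.35 in aba2/ga20ox1 and 8.32 ± 0.60 in aba2/GA20OX1-OE (SD, n = 3). Its 12 other arrays lay between 5.51 and 6.52, all below the 7.65 of the lowest mutant array. AT1G75960, of the AMP-dependent synthetase and ligase family, was at 9.0 ± 0.25, 9.30 ± 0.08 and 8.89 ± 0.61 in the genotypes with aba2 and at 7.20 ± 0.29 in Col-0. SUFE2, whose product takes part in iron-sulfur cluster assembly, was at 8.83 ± 0.12, 9.03 ± 0.44 and 8.53 ± 0.07 against 6.79 ± 0.53 in Col-0. In both of these genes every array with aba2 was above every array without it.

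AT1G78450, a SOUL heme-binding family gene, was at 9.09 ± 0.14, 9.18 ± 0.21 and 9.58 ± 0.15 with aba2 and 7.45 ± 0.28 in Col-0. AT4G20320, of the CTP synthase family, had 8.55, 8.34 and 8.31 in aba2, 7.88, 8.08 and 8.10 in aba2/ga20ox1, and 8.76, 9.54 and 8.85 in aba2/GA20OX1-OE, against 6.75, 6.67 and 6.32 in Col-0. The mutant genotypes did not overlap each other in this gene, with aba2/GA20OX1-OE the highest. The glutaredoxin gene AT1G06830 (1.34, 1.45 and 0.90) and the monooxygenase gene AT4G38540 (1.85, 1.61 and 0.84) had their smallest difference under GA20OX1-OE. AT3G28500, of the acidic ribosomal protein P2 family, is described with ABA2-OE below.

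Signalling and regulatory families gave 8 genes with smaller differences, of 0.71 to 1.25 at their smallest. The WD40 repeat gene AT1G24530 led them with 1.25, 1.73 and 1.62, from a Col-0 mean of 7.11 ± 0.44 (SD, n = 3). The protein kinase-related gene AT1G66940 was at 10.24, 10.45 and 10.41 in Col-0 and at 11.59, 11.79 and 11.96 in aba2, and none of its 9 arrays with aba2 fell below 11.08. The C2 domain genes AT5G55530 (1.20, 0.93 and 0.95) and AT3G55470 (0.88, 0.97 and 1.23), the F-box gene AT3G23880 (0.75, 0.87 and 0.88) and the FCS-like zinc finger genes AT3G22550 (0.81, 0.99 and 0.79) and AT4G17670 (0.77, 0.71 and 1.1) lay closer to the bound. AT1G22690, of the gibberellin-regulated GASA family, had Col-0 arrays at 10.81, 10.94 and 10.55 and aba2 arrays at 11.66, 11.62 and 11.68. Its differences were 0.89, 1.20 and 0.71, and its aba2/GA20OX1-OE arrays of 11.30, 10.36 and 10.96 reached down to the level of ga20ox1. They also overlapped those of their own partner GA20OX1-OE, at 9.86, 10.42 and 10.22, and the lowest was below all Col-0 arrays.

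The other 22 genes were not sorted by family here. Among them AT3G18250 differed by 1.67, 1.91 and 1.56 and AT2G17710 by 1.53, 2.2 and 1.55. AT3G22540 had Col-0 arrays at 6.05, 6.23 and 6.04 and differed by 1.01, 1.35 and 1.69. AT5G62210 (1.29, 0.96 and 2.35) and AT5G52390 (0.85, 1.43 and 1.96) had, with AT3G23550, the widest range among the differences, both with the largest under GA20OX1-OE. Just inside the bound were AT1G22690 and AT4G17670, each at 0.71 at the smallest, and AT4G34630 at 0.70. Just outside were AT1G25520 (0.699), AT5G58570 (0.698) and AT2G46140 (0.696), so the bound falls in a continuous run of values.

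Of the 273 genes on the lists for hormone pathways and cell types the annotation names 32, and none of these 32 is a member. Nothing is read from this, since only 0.657% of all tested genes are members. The rule also leaves out symbols beginning with EXP, such as EXPA18 of the root list. Whether members without a symbol stand on the lists was not checked. The lists for ABA synthesis and breakdown (18 genes) and for ABA perception and signalling (31 genes) have no gene named by the annotation, so they were not followed here. None of the 5 tested genes of the list for GA synthesis, breakdown and response passed limma's test in any comparison here, nor did the 3 tested jasmonate genes, the 2 of salicylic acid and defence, or the ethylene gene.

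Neighbouring genes recurred among the members. Of the 57 member genes 3 pairs were adjacent protein-coding genes in the TAIR10.1 annotation, AT1G30250 with AT1G30260, AT3G22540 with AT3G22550, and AT4G24130 with AT4G24140. Of 43 tested immediate neighbours of members 6 (14.0%) were members, and over all 8679 tested genes 0.657% were. AT1G30250 differed by 1.19, 1.65 and 1.44 and AT1G30260 by 0.80, 1.02 and 1.25, and both were lowest in GA20OX1-OE. AT4G24130 differed by 0.71, 1.05 and 0.99. Whether a probe set reads its neighbour was not tested.

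With ABA2 overexpressed most members lay close to Col-0, more of them above than below. The rule had set only the floor of -0.5 on ABA2-OE minus Col-0 and removed 12 probe sets by it. The differences of the 111 ran from -0.47 to 1.97 with a median of 0.15 (all tested -0.03), and 81 were above 0 and 30 below. ABA2-OE arrays lay wholly above Col-0 for 20 members, 18.0% of them, where 8.29% of all tested probe sets did. Nothing is read from these counts and shares, since the rule had bounded this difference and used the same Col-0 arrays. The ABA2-OE mean was below the aba2 mean in all 111.

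The members with the highest ABA2-OE difference were AT5G22430 (1.97), AT2G20870 (1.66), AT3G28500 (1.26), AT4G16260 (1.07) and AT2G18690 (1.05). AT3G28500, whose family forms the stalk of the large ribosomal subunit, had 9.99, 10.29 and 10.13 in ABA2-OE against 9.01, 8.38 and 9.22 in Col-0. It had 10.40, 10.75 and 10.53 in aba2, 10.40, 9.68 and 10.10 in aba2/ga20ox1 and 11.13, 11.61 and 11.30 in aba2/GA20OX1-OE, against 8.45, 8.59 and 8.17 in ga20ox1 and 10.43, 8.76 and 9.17 in GA20OX1-OE. ABA2-OE thus lay above Col-0 and overlapped aba2/ga20ox1. AT2G18690 was at 8.19, 8.29 and 8.81 in ABA2-OE, 7.29, 7.94 and 6.94 in Col-0 and 9.06, 9.85 and 9.37 in aba2. In each of these 5 genes the ABA2-OE arrays were all between those of Col-0 and those of aba2. At the other end, among members with 1 gene, were AT1G22690 (-0.47), AT1G20070 (-0.33) and AT1G66940 (-0.23). Probe set 250777_at, with no gene in the annotation, was at -0.44. For the difference of ABA2-OE as well as that of aba2 the same Col-0 arrays serve as the reference.

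**Figure D3:**
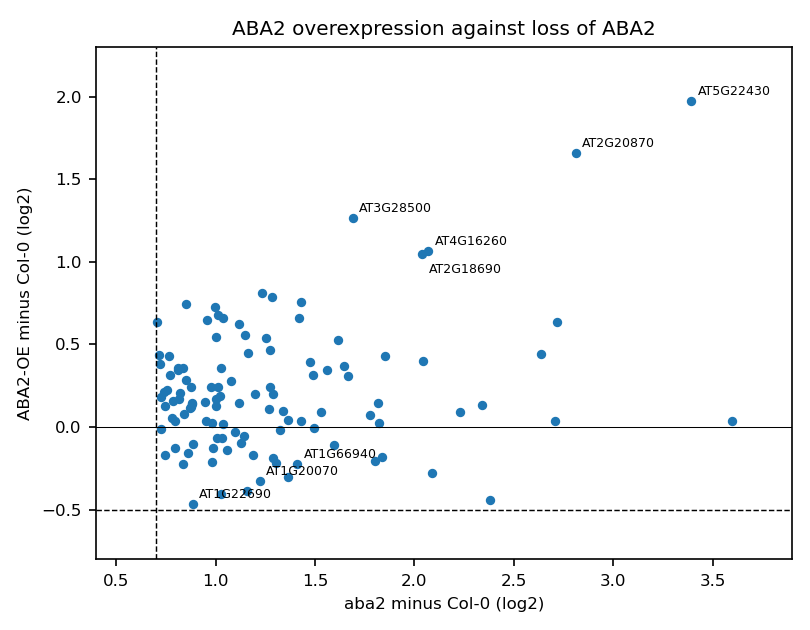
ABA2-OE minus Col-0 (vertical axis) against aba2 minus Col-0 (horizontal axis) for the 111 members, as differences of mean log2 signal of 3 arrays, with the bounds of the rule dashed. The 5 highest and 3 lowest genes on the vertical axis with 1 gene are named, both axes share the Col-0 arrays, and 81 points lie above 0.

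Comparisons of GA genotypes at a fixed ABA2 state were not among the contrasts of the rule, although the rule used the same arrays, and these were tested. With ABA2 present few members were called, which does not show that the others were unchanged. In ga20ox1 against Col-0 limma called 0 members (0.0126% of all tested), with 14 at an unadjusted p under 0.05. The count was 4 with array quality weights. In GA20OX1-OE against Col-0 it called 1 member (0.0188% of all tested), lower, and 17 had an unadjusted p under 0.05. The replicate block gave 2. In GA20OX1-OE against ga20ox1 it called 4, all lower (0.0628% of all tested were called lower), and 28 had an unadjusted p under 0.05. The 4 calls became 1 without GA20OX1-OE replicate 1, 7 without GA20OX1-OE replicate 2, and 2 without ga20ox1 replicate 1 or 2. They became 32 with array quality weights and 7 with the replicate block.

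Among these calls 1 gene was named, AT1G30260. It had 9.68, 9.67 and 9.93 in GA20OX1-OE, 10.72, 10.55 and 10.86 in Col-0, and 10.63, 10.84 and 10.50 in ga20ox1. The GA20OX1-OE arrays lay below those of both other genotypes, with differences of -0.95 against Col-0 (SE 0.16, limma adjusted p = 0.041) and -0.90 against ga20ox1 (SE 0.16, limma adjusted p = 0.02). The first call was lost in 20 of 30 alternatives, where the adjusted p ranged from 0.019 to 0.28. The second was lost without ga20ox1 replicate 1 or 2, without GA20OX1-OE replicate 1 or 2 and in 3 other alternatives (adjusted p from 3.1e-05 to 0.17). Its neighbour AT1G30250 stood at 9.47, 9.39 and 9.79 in GA20OX1-OE and 10.14, 10.51 and 10.64 in Col-0, and was not called (limma adjusted p = 0.14).

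Without ABA2 the counts differed by comparison, and whether a GA effect differed between the ABA2 states was not tested. In aba2/ga20ox1 against aba2 limma called 0 (0.00628% of all tested), with 8 at an unadjusted p under 0.05. In aba2/GA20OX1-OE against aba2 it called 1 member higher (0.628% of all tested) and 2 lower (0.132% of all tested). These 3 calls became 1 without aba2 replicate 2 or 3 or aba2/GA20OX1-OE replicate 2, and 5 without ga20ox1 replicate 3. They became 9 with array quality weights and 6 with the replicate block. In aba2/GA20OX1-OE against aba2/ga20ox1 it called 6 members higher, 5.41% of them (2.73% of all tested), and 15 lower, 13.5% of them (1.18% of all tested). The median of the members was -0.19 in this last comparison, where that of all tested probe sets was 0.11. Leaving out 1 array gave 12 calls, without aba2/ga20ox1 replicate 3, to 23, and 9 of the 21 calls held under all 30 alternatives.

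The 8 named genes that were lower in aba2/GA20OX1-OE than in aba2/ga20ox1 included 3 of the 5 defence-type genes (1.18% of all tested probe sets were called lower). The groups were formed from general knowledge, and nothing is read from this count. The peroxidase gene AT4G11290, whose arrays are given above, fell from 9.64 ± 0.09 to 8.47 ± 0.16 (SD, n = 3), a log2 difference of -1.17 (SE 0.22, limma adjusted p = 0.004). The lectin gene AT3G16530 fell by 1.13 (SE 0.20, limma adjusted p = 0.0029). It also fell by 1.03 against aba2 (SE 0.20, limma adjusted p = 0.013), a call that was lost without aba2 replicate 2 or 3, without aba2/GA20OX1-OE replicate 2 and with only the compared arrays in the fit. The glucanase gene AT4G16260 fell by 1.13 (SE 0.30, limma adjusted p = 0.033). Its call was lost without aba2/GA20OX1-OE replicate 1 or 2 and without aba2/ga20ox1 replicate 2 or 3 (adjusted p of alternatives 0.0089 to 0.14). The arrays of aba2/GA20OX1-OE lay below those of aba2/ga20ox1 in all 3 genes.

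The MATE gene AT3G23550 fell by 1.22 (SE 0.25, limma adjusted p = 0.0076), and the call was lost without aba2/ga20ox1 replicate 3 (adjusted p up to 0.058). AT3G18250 had 7.11, 8.00 and 7.84 in aba2/GA20OX1-OE against 8.50, 8.90 and 9.11 in aba2/ga20ox1, a fall of 1.19 (SE 0.27, limma adjusted p = 0.014). That call was lost without aba2/GA20OX1-OE replicate 1 or aba2/ga20ox1 replicate 3 (adjusted p up to 0.089). AT1G30250 had 10.47, 11.38 and 11.12 against 11.70, 11.96 and 12.14, a fall of 0.94 (SE 0.19, limma adjusted p = 0.0071) that held in every alternative, where adjusted p was 0.00019 to 0.047. Its neighbour AT1G30260 had 10.68, 11.34 and 11.00 against 11.53, 11.60 and 11.89, a fall of 0.67 (SE 0.16, limma adjusted p = 0.02). The GASA gene AT1G22690 fell by 0.85 (SE 0.21, limma adjusted p = 0.022). Both of these calls were lost without aba2/ga20ox1 replicate 3 or aba2/GA20OX1-OE replicate 3, and each also without others (AT1G30260 without aba2/GA20OX1-OE replicate 1, AT1G22690 without aba2/ga20ox1 replicate 2 or aba2/GA20OX1-OE replicate 2). In none of these genes did the arrays of both genotypes overlap. AT1G30250 was named after its values were seen.

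The 4 named genes that were higher in aba2/GA20OX1-OE than in aba2/ga20ox1 were of the enzyme and wall groups, or unsorted. AT5G62210 had 9.96, 10.28 and 9.74 in aba2/GA20OX1-OE against 8.96, 8.58 and 8.45 in aba2/ga20ox1, a rise of 1.33 (SE 0.30, limma adjusted p = 0.011). With ABA2 present its arrays overlapped, at 7.97, 7.79 and 7.19 in GA20OX1-OE and 8.53, 7.72 and 6.87 in ga20ox1. The ribosomal gene AT3G28500 rose by 1.28 (SE 0.29, limma adjusted p = 0.014), and without aba2/GA20OX1-OE replicate 2 neither of these 2 calls held (adjusted p up to 0.067 in both). The call of AT5G62210 was also lost without aba2/ga20ox1 replicate 3, and that of AT3G28500 without aba2/ga20ox1 replicate 2. The GDSL gene AT5G33370 had 10.87, 11.06 and 10.78 against 10.03, 9.29 and 10.19, a rise of 1.07 (SE 0.23, limma adjusted p = 0.0098) that was lost without aba2/ga20ox1 replicate 2 (adjusted p 0.059). The CTP synthase family gene AT4G20320 rose by 1.03 (SE 0.21, limma adjusted p = 0.0073) and was called in every alternative (adjusted p 0.0045 to 0.049). The arrays of both genotypes were apart in all 4 genes.

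**Figure D4:**
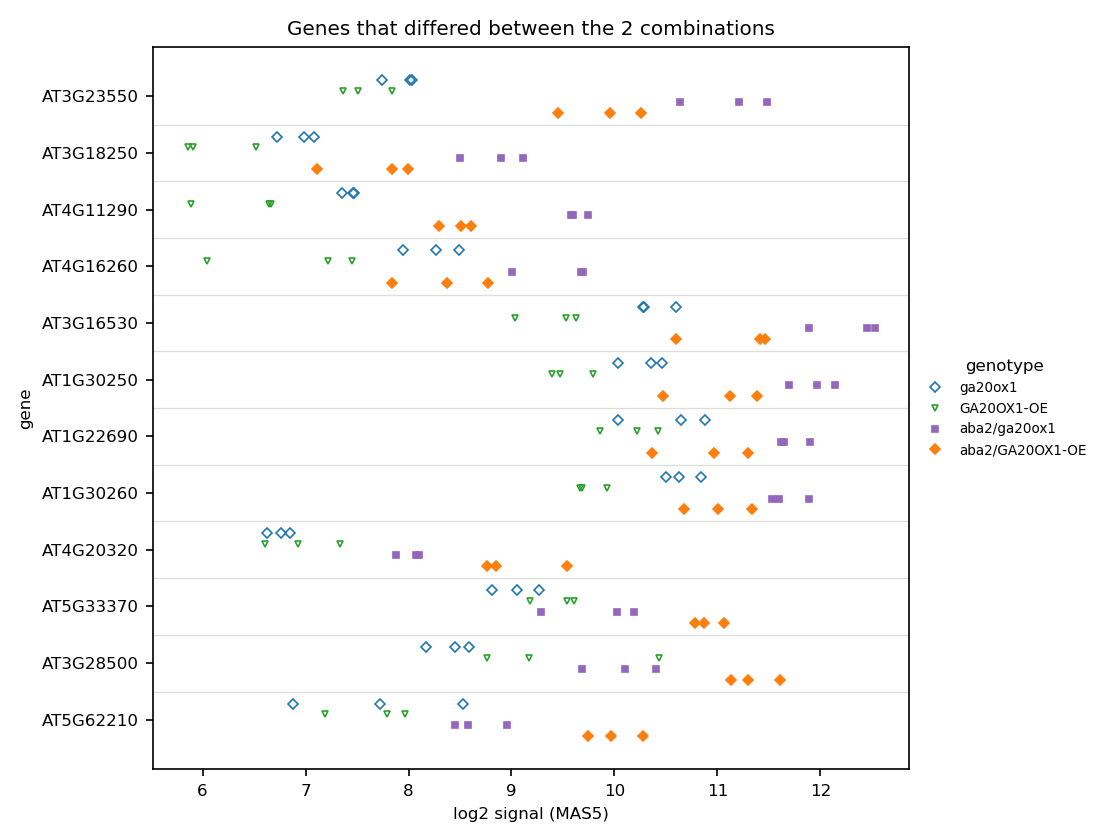
Log2 MAS5 signal (horizontal axis) on each array of both combinations with aba2 (aba2/GA20OX1-OE and aba2/ga20ox1) and of their partners with ABA2 (GA20OX1-OE and ga20ox1) for the 12 named members that differed between the 2 combinations by limma, 1 point per array. The first 8 genes from the top were lower and the last 4 higher in aba2/GA20OX1-OE, and within each gene the arrays of these 2 genotypes do not overlap.

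Some of the firmest differences belonged to probe sets with no gene in the annotation, named here after their values were seen. Probe set 255149_at had 9.34, 9.98 and 10.23 in aba2/GA20OX1-OE, 7.33, 7.25 and 7.22 in aba2/ga20ox1 and 7.53, 7.55 and 7.96 in aba2. It rose by 2.59 against aba2/ga20ox1 (SE 0.26, limma adjusted p = 2.8e-06) and by 2.17 against aba2 (SE 0.26, limma adjusted p = 0.00013). The arrays of aba2/GA20OX1-OE were far above all others of that probe set. Probe set 258791_at went the other way, at 11.79, 11.72 and 11.77 in aba2/GA20OX1-OE against 12.84, 12.93 and 13.41 in aba2/ga20ox1, a fall of 1.3 (SE 0.19, limma adjusted p = 0.0002). With ABA2 it stood at 10.09, 10.53 and 10.08 in GA20OX1-OE and 12.03, 11.98 and 11.43 in ga20ox1, a fall of 1.58 (SE 0.19, limma adjusted p = 0.00038).

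The comparison of GA20OX1-OE with ga20ox1 and that of aba2/GA20OX1-OE with aba2/ga20ox1 share no array, and the members were set side by side in them. Both differences were below 0 in 58 members and above 0 in 30, so 88 (79.3%) had the same sign, where 70.7% of all tested probe sets did. Across the 111 members Pearson's r was 0.79 and Spearman's rho 0.78, and over all 15923 probe sets 0.53 and 0.52. The points share their arrays, and the rule, which bounds the difference between the mutant and its partner in both pairs, bears on this likeness. It is given as a description, and genes are not independent replicates.

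**Figure D5:**
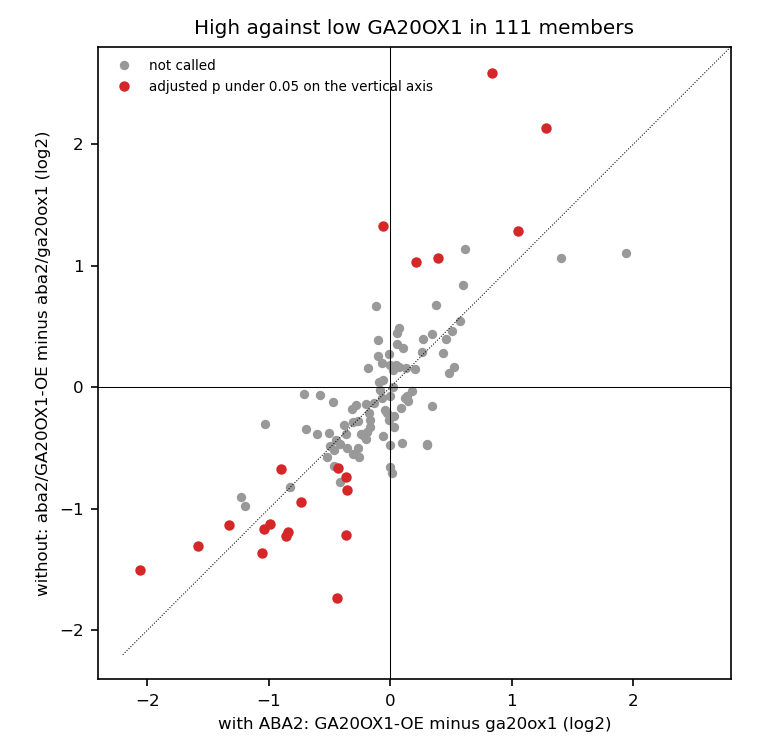
Difference of mean log2 signal between high and low GA20OX1 without ABA2 (aba2/GA20OX1-OE minus aba2/ga20ox1, vertical axis) against that with ABA2 (GA20OX1-OE minus ga20ox1, horizontal axis) for the 111 members, each from 3 arrays per genotype. Members with a limma adjusted p under 0.05 on the vertical axis are red (6 above and 15 below 0), the dotted line marks equal differences, and 88 points lie at the lower left or upper right of the crossing axes.

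Some markers of other organs also differed between these genotypes. Of 30 flower and anther markers 5 probe sets were named, and their summed signal was 1208 to 1948 in aba2/GA20OX1-OE, 304 to 541 in aba2/ga20ox1, 273 to 977 in aba2 and 383 to 452 in Col-0. The 3 tested markers went different ways in aba2 against Col-0. ACT11, an actin gene of reproductive tissue, was lower (-0.86, SE 0.19, limma adjusted p = 0.0081), INO, an ovule gene, differed by -1.51 without a call (limma adjusted p = 0.08), and ATA27, an anther beta-glucosidase gene, was higher (4.74, SE 1.03, limma adjusted p = 0.0066). In aba2/ga20ox1 against ga20ox1 and aba2/GA20OX1-OE against GA20OX1-OE ATA27 was also higher (4.68 and 4.36, limma adjusted p = 0.0082 and 0.014). ACT11 was lower in the first (-0.95, limma adjusted p = 0.004) and not called in the second (0.16, limma adjusted p = 0.79). INO was called in neither (0.71 and 0.26, limma adjusted p = 0.45 and 0.87). ATA27 had a Col-0 mean of 3.15, under the 6 required of members, and means of 2.35 in ga20ox1 and 5.61 in GA20OX1-OE. The sizes of its differences are therefore uncertain. In aba2/GA20OX1-OE against aba2/ga20ox1 ACT11 was called higher, by 1.5 (SE 0.19, limma adjusted p = 6.5e-05), as were 2.73% of all tested probe sets. ATA27 differed by 2.94 (SE 1.03, limma adjusted p = 0.11) and INO by 0.16 (SE 0.48, limma adjusted p = 0.87), without a call. With a mean of 9.96 in aba2/GA20OX1-OE, ATA27 weighs more in the summed signal there than ACT11 (8.57) or INO (5.99). Of 15 root markers 3 probe sets were named, with a sum of 317 to 727 in aba2/GA20OX1-OE, 973 to 1227 in aba2/ga20ox1, 1103 to 1702 in GA20OX1-OE, 1607 to 1826 in ga20ox1 and 860 to 1017 in Col-0. Of the 2 tested, PYK10, a beta-glucosidase gene of roots, fell by 1.31 between the combinations (SE 0.25, limma adjusted p = 0.0049), and the expansin gene EXPA18 differed by 0.45 (SE 0.60, limma adjusted p = 0.68). The single named seed marker, OLEO3, gave 65.9 to 72.3 in aba2/GA20OX1-OE and 30.4 to 43.5 in aba2/ga20ox1. This log2 difference of 0.89 was not called (SE 0.33, limma adjusted p = 0.13). In ABA2-OE the marker gave 45.1 to 86.3, and its Col-0 mean of 5.34 was under the 6 required of members. The part of these tissues in the values of the members was not tested.

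A larger set of 244 probe sets met the bounds on the Col-0 mean and on aba2 minus Col-0, but not the bound in both other backgrounds. Its median difference was 0.83 in aba2, 0.47 in the ga20ox1 background and 0.43 under GA20OX1-OE, where the members had 1.12, 1.08 and 1.12. The median of ga20ox1 minus Col-0 was 0.32 in this set and 0.07 in the members, and that of GA20OX1-OE minus Col-0 was 0.35 and -0.04. Contrasts of aba2 genotypes with their partners cut both sets, so these values are a description. The floor of -0.5 on ABA2-OE minus Col-0 and the exclusion by symbol were applied to the members only. In ABA2-OE against Col-0 the medians were 0.17 in the larger set, without this floor, and 0.15 in the members, with it. Nothing is read from these medians.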

How the data were processed

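Per the labels, 7 genotypes were measured on 3 single-channel arrays each. The deposited values are MAS5 signals, intensities on a linear scale, and MAS5 is named in the submitters' processing notes without a version. The mean after removing 2% of probe sets at each end was 500 on every array, so the deposited values had been scaled, and no detection calls were used here. The number of arrays limits the precision.

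Of 22810 probe sets, 64 AFFX controls were left out. Signals were logged to base 2 without further normalization. The rule that chose the members was applied to group means over 22746 probe sets, and its contrasts were not tested on members. For tests the 30% with the lowest mean were left out, which kept 15923. One model of 7 genotype means over 21 arrays was fitted with limma 3.58.1 in R 4.3.3 (lmFit, eBayes with an intensity trend). Probe sets with a two-sided Benjamini-Hochberg adjusted p under 0.05 over all 15923 were called. The test was checked on simulated data, where it recovered 16% of log2 changes of 0.5, 66% of changes of 1 and 98% of changes of 2. Changes near the bound of the rule can thus be missed. Python 3.11.15 (pandas 2.3.3, numpy 2.4.6, matplotlib 3.10.9) made the tables and plots.

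Members, gene lists, comparisons and alternatives were chosen with earlier results of these data known. Genes were named through the annotation supplied with the series, and families come from general knowledge. The rule for names took members with 1 gene: the 15 with the largest smallest difference, 3 on each side of the bound, up to 5 per direction called in a GA comparison, 3 each at the highest and lowest Col-0 mean, the 3 widest ranges, and the 5 highest and 3 lowest in ABA2-OE. Other genes named by family, by neighbourhood or beside these were chosen after their values were seen. Same-numbered arrays were not treated as pairs. Alternatives changed the eBayes trend, the weights of arrays, the replicate block, the groups in the fit, the filter (none or 50%), the pseudocount (20.1), the normalization (quantile), the bound (1) and the arrays used.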

Additional observations from a re-analysis of the deposited data

Results flagged for a closer look

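AT1G14210, a ribonuclease T2 family gene, had GA20OX1 differences of opposite sign in the 2 ABA2 states. Opposite signs were not rare, since the sign was the same in 79.3% of members and in 70.7% of all tested probe sets. With ABA2 its log2 signals were 8.19, 8.1 and 8.2 in GA20OX1-OE and 7.99, 7.86 and 7.73 in ga20ox1, a difference of 0.30. Without ABA2 they were 8.95, 8.75 and 9.04 in aba2/GA20OX1-OE and 9.35, 9.26 and 9.52 in aba2/ga20ox1, a difference of -0.46. The arrays overlapped in neither state. The difference between both effects was not tested, and neither effect was called by limma.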

How the results depend on the processing

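Calls with ABA2 present moved most. In ga20ox1 against Col-0 array quality weights gave 4 calls and leaving out 1 array 0 to 1. In GA20OX1-OE against Col-0 the count was 0 without the eBayes trend, with array weights, with only the compared groups, without the low-signal filter and with aba2/GA20OX1-OE replicate 3 and GA20OX1-OE replicate 2 both left out, and 0 to 1 with each array left out. In GA20OX1-OE against ga20ox1 it was 2 without the trend, 32 with array weights (9 higher, 23 lower), 1 with only the compared groups, 1 without GA20OX1-OE replicate 1, 2 without ga20ox1 replicate 1 or 2, and 7 without GA20OX1-OE replicate 2. In aba2/GA20OX1-OE against aba2 it was 9 with array weights, 1 without aba2 replicate 2 or 3 or aba2/GA20OX1-OE replicate 2, and 5 without ga20ox1 replicate 3. In aba2/GA20OX1-OE against aba2/ga20ox1 it was 12 (5 higher, 7 lower) without aba2/ga20ox1 replicate 3 and up to 23 with any other single array left out. The replicate block gave 2, 7, 6 and 24 calls in these 4 comparisons from GA20OX1-OE against Col-0 on. Same-numbered arrays correlated in their deviations at -0.25 to 0.49 and differently numbered ones at -0.50 to 0.31, with 18 of 21 arrays nearer on average to their own number. The cause of these moves was not tested.

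The rule gave 42 members with a bound of 1, 104 to 117 with 1 array left out, 117 with a pseudocount (96 of the 111 among them), 111 after quantile normalization (98 of the 111) and 108 with those 2 arrays left out (96 of the 111). The ABA-induced genes lower in aba2/ga20ox1 against ga20ox1 numbered 5 with array weights or the replicate block and 2 to 4 with 1 array left out. In 15 calls of named genes over 30 alternatives, 395 values stayed called, 55 did not and none changed sign. The planned search of promoters for motifs was not run. Signals near background limit the smaller differences of members with a Col-0 mean close to 6.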
